A study of Mus musculus with 12 samples.

Results

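A set of 10 enzymes that modify, trim and crosslink collagen was followed in mouse liver with nonalcoholic steatohepatitis (NASH), a fatty liver disease with inflammation and scarring. They are the lysyl oxidases Lox, Loxl1, Loxl2, Loxl3 and Loxl4, the lysyl hydroxylases Plod1, Plod2 and Plod3, the prolyl hydroxylase subunit P4ha1 and the procollagen C-proteinase Bmp1. They were taken by gene symbol, and all 10 are among the 16703 genes of the liver table and the 16273 genes of the endothelial table. The set was chosen by symbol with the NASH against chow fold changes of both tables already known, and Bmp1 was selected on its opposite change in the 2 tables. For the 10 genes these values are therefore given as a description, without p-values.

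RNA-seq was done on C57BL/6 mice in 4 groups of 3 libraries, namely whole liver on chow, whole liver on a NASH diet (D09100301, Research Diets), and liver sinusoidal endothelial cells (LSEC) from each diet. LSEC are the thin, perforated endothelium of the liver's capillaries, and here they were the CD146-bead fraction of non-parenchymal cells from which CD11b-positive cells had been removed. The labels give 36 weeks of NASH diet in a note attached to every sample, chow included, and give no age, sex or number of animals. They do not say that the 3 libraries of a group came from separate mice, so the errors and p-values measure the spread between these libraries, which may be technical in part.

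Collagen chains are modified before they leave the cell. Prolyl 4-hydroxylase, whose catalytic subunits include P4ha1, hydroxylates prolines and so stabilises the triple helix, and the Plod enzymes hydroxylate lysines, with Plod2 acting on the telopeptides at the chain ends. Outside the cell Bmp1 removes the C-terminal propeptide of fibrillar procollagens, which lets fibrils form, and it also trims the Lox proenzyme. The copper-dependent lysyl oxidases then oxidise lysines and hydroxylysines of collagen and elastin to aldehydes that react into crosslinks. Crosslinked collagen is stiff and resists breakdown, and in fibrotic liver activated stellate cells and portal fibroblasts are the main makers of fibrillar collagen.

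Values are normalized reads, the authors' read counts divided by 1 factor per library. The whole reads recovered from them summed to between 47000197 and 57397720 in the liver libraries and between 18527017 and 19402863 in the LSEC libraries, and the 10 genes had at least 10 reads in every library. A gene was called where limma, fitted to log2(normalized reads + 1) over all genes of a table, gave a Benjamini-Hochberg adjusted p under 0.05. Fold changes are on this log2 scale, NASH over chow, with the standard error of the fit. The labelled cell types had their markers. Summed over 7 sinusoidal markers (Stab1, Stab2, Lyve1, Clec4g, Fcgr2b, Oit3 and Gpr182), chow libraries held 362619 to 402890.5 normalized reads in LSEC and 20625 to 23799 in whole liver. In NASH these sums were 230856 to 237293 and 16454 to 18021. The 2 tables were scaled separately. If each library was scaled to its total instead, the median over all genes shifted by 0.42 (log2) in liver and 0.14 in LSEC, and the changes given here are relative to the authors' scaling.

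In NASH liver 4 of 5 lysyl oxidase genes and the telopeptide lysyl hydroxylase Plod2 were higher, Plod3 was slightly higher, and Bmp1 was lower. Of the 10 genes 7 were called, 6 higher and 1 lower, where 46.0% of all liver genes were called, 25.0% higher and 21.0% lower. In LSEC Lox, Loxl1, Plod2 and Bmp1 were higher and Loxl3 was lower. That is 5 of 10 called, where 8.11% of all LSEC genes were called, 5.24% higher and 2.86% lower. The median log2 fold change of the 10 genes was 0.89 in liver and 0.91 in LSEC, against 0.02 and 0.00 over all genes. The 3 NASH and 3 chow libraries did not overlap for 7 of the 10 in liver, 6 above and 1 below chow, where 57.1% of all liver genes did not overlap, 29.8% above and 27.3% below. In LSEC they did not overlap for 6, 5 above and 1 below, against 31.9% of all genes, 16.5% above and 15.4% below. The set was chosen with these contrasts known, and nothing is read from its counts against the background.

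Lox, the founding lysyl oxidase, lies on chromosome 18, 52516067 to 52529867, minus strand (mm10). On chow, whole liver had 19.0, 19.4 and 10.3 normalized reads of Lox, and in NASH it had 159.7, 242 and 269. The lowest NASH library stood far above the highest chow library, and chow liver held only 10 to 18 recovered Lox reads per library. The log2 fold change was 3.72 ± 0.32 (SE, n = 3 per group; 95% interval 3.02 to 4.43), a rise from 16.2 to 224 in the mean. LSEC had 62.7, 68.5 and 52.2 on chow and 209, 153 and 213 in NASH. The groups again did not overlap, and the log2 fold change was 1.62 ± 0.24 (95% interval 1.06 to 2.19).

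Loxl1, which is best known for crosslinking elastin, lies on chromosome 9, 58287738 to 58313186, minus strand. It had 77.1, 83.1 and 102 normalized reads in chow liver and 1090.4, 699.7 and 1183 in NASH liver, a log2 fold change of 3.46 ± 0.21. The NASH libraries were all above the chow libraries but spread more widely, with the second NASH library lowest. In LSEC the values were 98.2, 70.7 and 89.1 on chow and 364, 177 and 252 in NASH, and the log2 fold change was 1.56 ± 0.30 (95% interval 0.86 to 2.26). The second library was the lowest of its group for Loxl1 under both diets in LSEC, where library numbers are names by position and pair nothing.

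Loxl2, an oxidase with scavenger receptor domains that acts on type IV and fibrillar collagen, lies on chromosome 14, 69609068 to 69695834, plus strand. In liver it went from 182, 183 and 208 to 843, 896 and 1021 normalized reads, with no overlap and a log2 fold change of 2.26 ± 0.13 (95% interval 1.97 to 2.55). In LSEC the chow libraries had 1317, 629 and 1334 and the NASH libraries 2504, 1930.4 and 2079. The second chow library was lower than the other two, while the NASH libraries all lay above every chow library. The log2 fold change of 1.06 ± 0.29 (95% interval 0.37 to 1.75) missed the call in limma. It was called without the second chow library (0.70) and with DESeq2 on recovered reads (0.99).

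Loxl3, another oxidase with scavenger receptor domains, lies on chromosome 6, 83034173 to 83052562, plus strand, and it was the member that moved in opposite directions besides Bmp1. In liver it had 123, 118 and 133 normalized reads on chow and 304, 329 and 368 in NASH, a log2 fold change of 1.41 ± 0.15 (95% interval 1.07 to 1.75). In LSEC it had 1053, 786 and 948 on chow and 639, 512 and 553 in NASH, all NASH libraries below all chow libraries, and -0.70 ± 0.16 on the log2 scale (95% interval -1.07 to -0.33). With scaling by total reads the LSEC value was -0.57 and the call was lost. The last exons of Loxl3 share 535 bases with Htra2, a mitochondrial protease gene on the opposite strand, and the liver kit does not mark strand. The strand setting of the LSEC libraries is not stated. Htra2 was at 0.23 (log2, NASH over chow) in liver, at -0.45 in LSEC, and was called in neither (limma, adjusted p = 0.105 and 0.144), and its part in the Loxl3 values was not tested.

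Loxl4, the remaining oxidase with scavenger receptor domains (chromosome 19, 42593982 to 42612813, minus strand), was called in neither table. It had 98.5, 101 and 131 normalized reads in chow liver and 114, 129 and 191 in NASH liver, with overlapping groups and a log2 fold change of 0.36 ± 0.24 (95% interval -0.17 to 0.89). LSEC had 272, 143 and 189 on chow and 289, 266 and 218 in NASH (0.39 ± 0.27, 95% interval -0.23 to 1.02). The intervals do not exclude a rise of the size that Plod3 showed in liver. With scaling by total reads Loxl4 was called higher in liver (0.78).

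**Figure D1:**
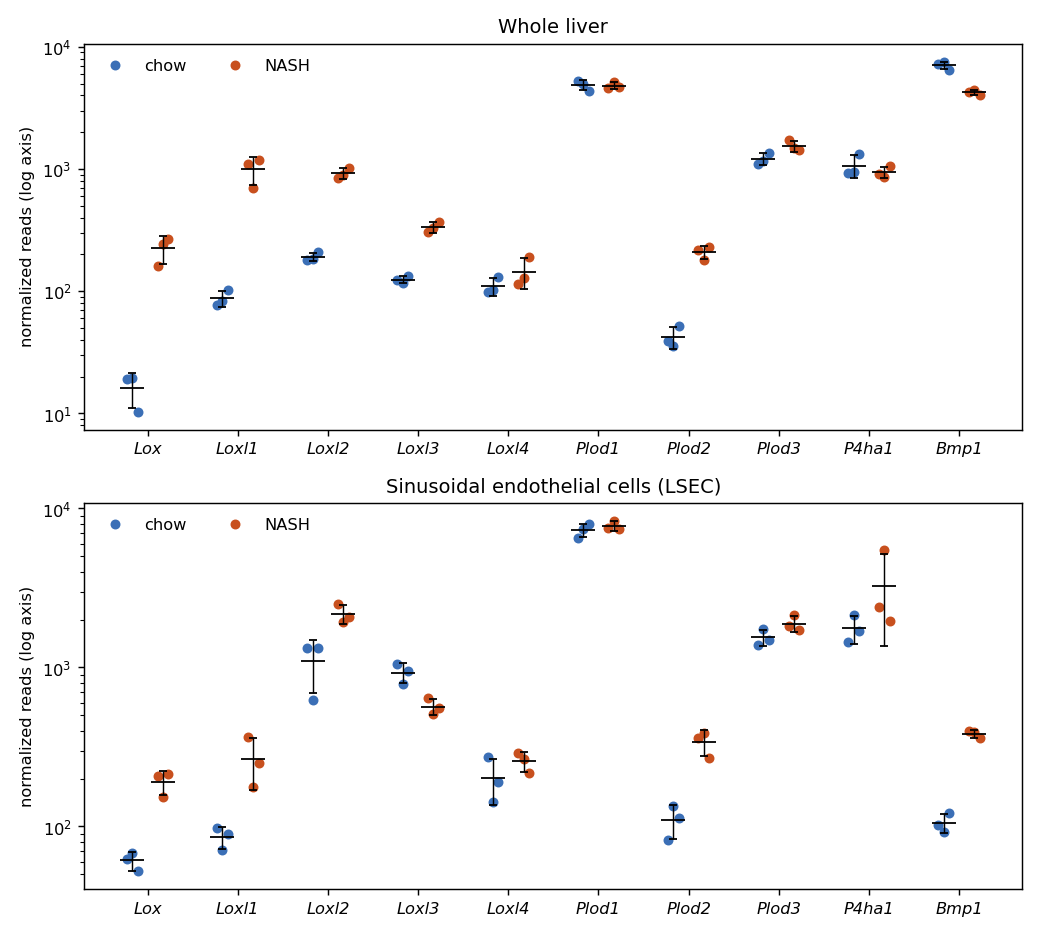
Normalized reads (log axis) of the 10 genes in each of the 3 chow (blue) and 3 NASH (orange) libraries, whole liver above and LSEC below; points are libraries, bars the mean and SD. In liver the diets stand apart for Lox, Loxl1, Loxl2, Loxl3, Plod2, Plod3 and Bmp1, and in LSEC for Lox, Loxl1, Loxl2, Loxl3, Plod2 and Bmp1.

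The makeup of the lysyl oxidase family was not the same in the 4 groups. On a scale of normalized reads per kilobase of exon, the 5 genes summed to 119 ± 11.3 in chow liver and 624 ± 99.9 in NASH liver (SD, n = 3). In chow liver Loxl1, Loxl2, Loxl3 and Loxl4 held similar shares of this sum, at 22.3 ± 1.18%, 29.9 ± 0.512%, 22.9 ± 1.08% and 22.0 ± 1.45%. In NASH liver Loxl1 led with 47.7 ± 7.09%, while the share of Loxl4 was 5.46 ± 0.946%. Lox itself stayed a small part, at 2.94 ± 1.13% and 7.58 ± 2.06%.

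In LSEC the family sum was 491 ± 118 on chow and 707 ± 107 in NASH on the same per-kilobase scale. Loxl2 and Loxl3 shared most of it on chow, at 40.2 ± 6.90% and 41.9 ± 5.16%. In NASH their shares were 56.9 ± 0.849% and 17.5 ± 0.629%, a parting seen in each library. Loxl1, the leading oxidase of NASH liver, held 11.1 ± 2.35% in NASH LSEC. Shares within a library do not depend on its scaling factor.

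**Figure D2:**
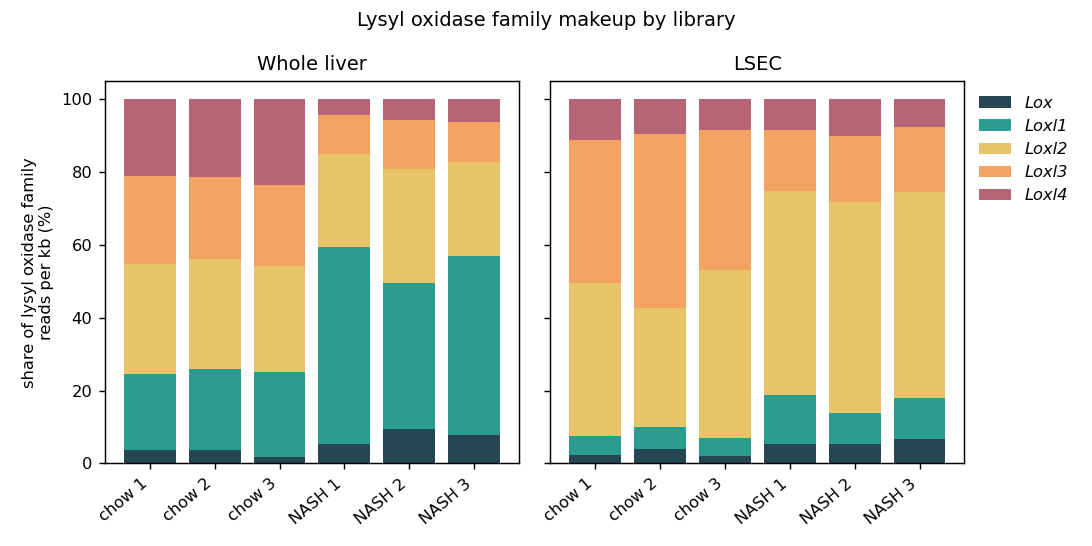
Share of each lysyl oxidase gene (%) in the family's normalized reads per kilobase of exon, 1 stacked bar per library, whole liver left and LSEC right. Loxl1 takes the largest share in each NASH liver library, and Loxl2 in each NASH LSEC library.

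Among the lysyl hydroxylases, Plod2 was higher in NASH in both tables while Plod1, the most abundant, was called in neither. Plod1 (chromosome 4, 147909753 to 147936767, minus strand), which hydroxylates lysines within the helix, had 5269.9, 5000.3 and 4344 normalized reads in chow liver and 4626, 5170.4 and 4655 in NASH liver. In LSEC it had 6537, 7461 and 7933 and 7574, 8371 and 7388. Both pairs of groups overlapped, and the log2 fold changes were -0.01 ± 0.10 (95% interval -0.23 to 0.20) and 0.09 ± 0.12 (95% interval -0.20 to 0.38). The liver value turned to 0.40 with scaling by total reads and was called higher there.

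Plod2, whose telopeptide hydroxylysines give the crosslinks typical of scar collagen, lies on chromosome 9, 92542223 to 92608428, plus strand. Liver had 39.2, 35.6 and 52.3 normalized reads on chow and 218, 180.0 and 232 in NASH, far apart, with a log2 fold change of 2.29 ± 0.22 (95% interval 1.79 to 2.79). LSEC had 82.5, 135 and 113 on chow and 362, 388 and 269 in NASH, also without overlap, and 1.63 ± 0.25 (95% interval 1.04 to 2.22). Counted within each library, Plod2 had 0.743, 0.712 and 1.20 reads per 100 Plod1 reads in chow liver and 4.70, 3.48 and 4.98 in NASH liver. In LSEC it had 1.26, 1.81 and 1.42 per 100 on chow and 4.78, 4.64 and 3.64 in NASH. The ratio of these genes was thus higher in every NASH library than in any chow library of its table.

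Plod3, which also adds glucose to hydroxylysine-linked galactose, lies on chromosome 5, 136987019 to 136996648, plus strand. It had 1106, 1158 and 1363 normalized reads in chow liver and 1718, 1472 and 1432 in NASH liver, a small rise of 0.35 ± 0.11 on the log2 scale (95% interval 0.10 to 0.60). That call was lost without the first chow (0.29), the second chow (0.32) or the first NASH library (0.27). LSEC had 1391, 1751 and 1489 and 1817, 2124 and 1714, overlapping groups, and 0.29 ± 0.14 (95% interval -0.04 to 0.61). Plod3 shares 529 exon bases with Znhit1 on the opposite strand, which was at -0.28 and -0.04 on the log2 scale and was called in neither table (limma, adjusted p = 0.0774 and 0.925). Lox, Loxl2 and Plod2 also share 30, 301 and 346 exon bases with unnamed or predicted genes on the other strand, whose part in the reads was not tested.

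P4ha1 (chromosome 10, 59323296 to 59373304, plus strand), the main catalytic subunit of prolyl 4-hydroxylase in many tissues, was called in neither table. Liver had 923, 954 and 1325 normalized reads on chow and 914, 859 and 1054 in NASH, and the log2 fold change was -0.17 ± 0.15 (95% interval -0.50 to 0.17), with the sign turned by scaling by total reads (0.25). LSEC had 1447, 2153 and 1689 on chow and 2394, 5443 and 1959 in NASH. The second NASH library was far above all others. The first NASH library was also above every chow library, and the third lay within the chow range. The log2 fold change in LSEC was 0.76 ± 0.37 (95% interval -0.11 to 1.63), and 0.32 without the second NASH library.

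Among the NASH LSEC libraries the second was the highest for 9 of 16 other genes of hydroxylation and folding and the lowest for 5, Fkbp10 among the latter (701, 417 and 564 normalized reads in NASH). The first was highest for 5 and the third for 2. Serpinh1, the collagen chaperone HSP47, had 2851, 5414 and 3651 normalized reads on chow and 6839.9, 12249.7 and 5386 in NASH. P4ha2, another catalytic subunit, had 406, 524 and 405 and 225, 568 and 178, and P4hb, the shared beta subunit, 7113, 9044 and 8362 and 9326, 11117 and 9327. These 3 genes were among the 9. The second NASH library did not lead for Col1a1, a chain of type I collagen, with 285, 396 and 451 on chow and 9173, 4205 and 6425 in NASH, nor for the hypoxia-responsive glucose transporter gene Slc2a1 (1012, 709 and 522 in NASH). The summed cholangiocyte markers (Krt19, Krt7, Epcam and Sox9) were 491, 562 and 865 on chow and 889, 4452 and 1881 in NASH, again highest in the second NASH library. That library also led for summed Kupffer cell markers (29164, 39096 and 31120 in NASH) and myofibroblast and smooth muscle markers (3744, 4978 and 3043), and narrowly for sinusoidal markers. The first NASH library led for stellate and mesothelial markers, and the third for hepatocyte, recruited macrophage and general endothelial markers. The part of any of these cells in the P4ha1 value was not tested.

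**Figure D3:**
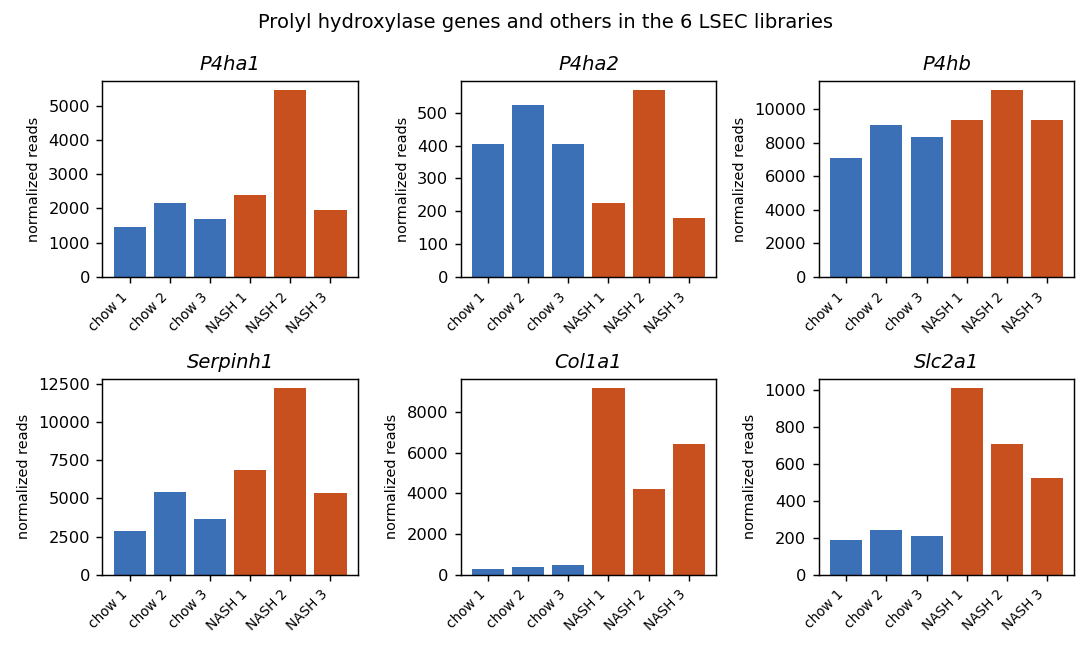
Normalized reads of P4ha1, P4ha2, P4hb, Serpinh1, Col1a1 and Slc2a1 in the 3 chow (blue) and 3 NASH (orange) LSEC libraries, 1 bar per library and a linear axis from 0 in each panel. The second NASH library is highest for P4ha1, P4ha2, P4hb and Serpinh1, and the first NASH library for Col1a1 and Slc2a1.

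The 150 bases upstream of the RefSeq start (GRCm38.p6) are shown for Loxl4, Plod1 and P4ha1, the 3 genes called in neither table, so that their starts can be compared. The RefSeq promoter table held 4 of the 10 genes, these and Plod3. The sequences read 5′ to 3′ on the gene's strand. Capitals mark ACGTG, a form of the core that hypoxia-inducible factors bind, and GGGCGG, the GC box, on either strand, and the search also covered TATAAA. The form of that core with G in place of the first A was not searched for and is not marked.
Loxl4, chr19:42612807-42612956, minus strand: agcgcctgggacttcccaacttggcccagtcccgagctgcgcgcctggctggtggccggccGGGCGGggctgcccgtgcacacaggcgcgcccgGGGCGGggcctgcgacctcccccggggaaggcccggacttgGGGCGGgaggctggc
Plod1, chr4:147936777-147936926, minus strand: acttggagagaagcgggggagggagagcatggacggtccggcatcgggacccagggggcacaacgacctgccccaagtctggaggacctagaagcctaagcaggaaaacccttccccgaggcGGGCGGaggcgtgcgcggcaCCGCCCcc
P4ha1, chr10:59323146-59323295, plus strand: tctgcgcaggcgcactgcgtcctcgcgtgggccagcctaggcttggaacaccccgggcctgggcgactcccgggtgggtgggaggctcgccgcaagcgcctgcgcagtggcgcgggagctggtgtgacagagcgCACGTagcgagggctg
In the 250 bases before the start, Loxl4 held 3 GC boxes and Plod1 held 2 GC boxes and 1 TATAAA, the last outside the stretch shown. Plod3, whose stretch is not shown, held 1 ACGTG and no GC box. P4ha1 held 1 ACGTG and 1 GC box, the latter outside the stretch shown. Of 32851 mouse promoters in the RefSeq table, 16.6% held ACGTG, 32.7% GGGCGG and 12.4% TATAAA in the same window. A match describes the letters only.

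Bmp1 (chromosome 14, 70474558 to 70520234, minus strand), chosen for its opposite changes, was an abundant transcript of whole liver and a scarce one of LSEC. Chow liver had 7188, 7492 and 6469.6 normalized reads and NASH liver 4226, 4458 and 4022, so every NASH library was below every chow library, and the log2 fold change was -0.73 ± 0.09 (95% interval -0.93 to -0.54). The fall was smaller, -0.32, with scaling by total reads. LSEC had 102, 92.5 and 122 on chow and 397, 393 and 359 in NASH, all NASH libraries higher, and 1.86 ± 0.18 (95% interval 1.43 to 2.28). With each LSEC library left out in turn the value was 1.77 to 1.96.

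Hepatocyte markers moved with Bmp1 in liver and varied in LSEC. In liver the summed reads of 6 such markers (Alb, Apoa1, Ttr, Cyp2e1, Tat and Cps1), none at 0, were 5991185 to 6506938 on chow and 2828077 to 3225926 in NASH, with 4 of the 6 called lower and none higher. In bulk samples fewer cells of a type and less RNA per cell cannot be told apart. Bmp1 had 0.186, 0.172 and 0.155 reads per 100 reads of the albumin gene Alb in chow liver and 0.201, 0.221 and 0.205 in NASH liver, so that within libraries this ratio was higher in NASH. In LSEC Alb had 11003, 61571 and 5799.9 normalized reads on chow and 27789.5, 34837 and 54247 in NASH, and Bmp1 had 0.93, 0.15 and 2.10 and 1.43, 1.13 and 0.661 reads per 100 Alb reads. All NASH LSEC libraries exceeded every liver library in that ratio, while the second chow LSEC library, with the most Alb, was below the lowest chow liver library. The part of hepatocyte RNA in the Bmp1 values was not tested.

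Calls in LSEC were lost for Lox, Loxl1, Plod2 and Loxl3 when certain single libraries were left out. Of 5 members called, 1 was left without the third chow, the first NASH or the third NASH library, and 3 without the second NASH library. Lox lost its call without chow library 3 (1.52), NASH library 1 (1.56) or NASH library 3 (1.54). Loxl1 lost it without chow library 2 (1.43) or 3 (1.59), or without NASH library 1 (1.30) or 3 (1.57). Plod2 lost it without chow library 3 (1.66) or any of the NASH libraries (1.52 to 1.79). Loxl3 kept it only without the second chow library (-0.82), its other values being -0.79 to -0.61. Each fold change in this paragraph kept its direction, and fewer libraries also lower the power of the fit.

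The NASH effect of the same gene could be set side by side in the 2 tables, as a difference of log2 fold changes, liver minus LSEC. It is built from the contrasts the set was chosen on and is a description for these genes. It was called for 5 of the 10 genes, where 19.5% of 15766 genes in both tables were called (limma effects, t distribution, Benjamini-Hochberg adjusted p under 0.05), 11.5% with the higher effect in liver and 7.99% with the higher in LSEC. The difference was 2.10 ± 0.40 for Lox, 1.90 ± 0.37 for Loxl1, 1.20 ± 0.32 for Loxl2 and 2.11 ± 0.22 for Loxl3, so these oxidases had the larger effect in whole liver. For Bmp1 it was -2.59 ± 0.20. For Plod2 (0.66 ± 0.34, 95% interval -0.05 to 1.38), P4ha1 (-0.92 ± 0.40, -1.82 to -0.03), Loxl4 (-0.03 ± 0.36, -0.78 to 0.72), Plod1 (-0.11 ± 0.16, -0.44 to 0.23) and Plod3 (0.06 ± 0.18, -0.32 to 0.44) it was not called after adjustment over all genes. The call for Loxl2 ended without the first LSEC chow library (1.02) or any of the LSEC NASH libraries (1.12 to 1.31), and also without the third LSEC chow library. LSEC are themselves part of whole liver, and the cells behind a difference cannot be told apart here.

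**Figure D4:**
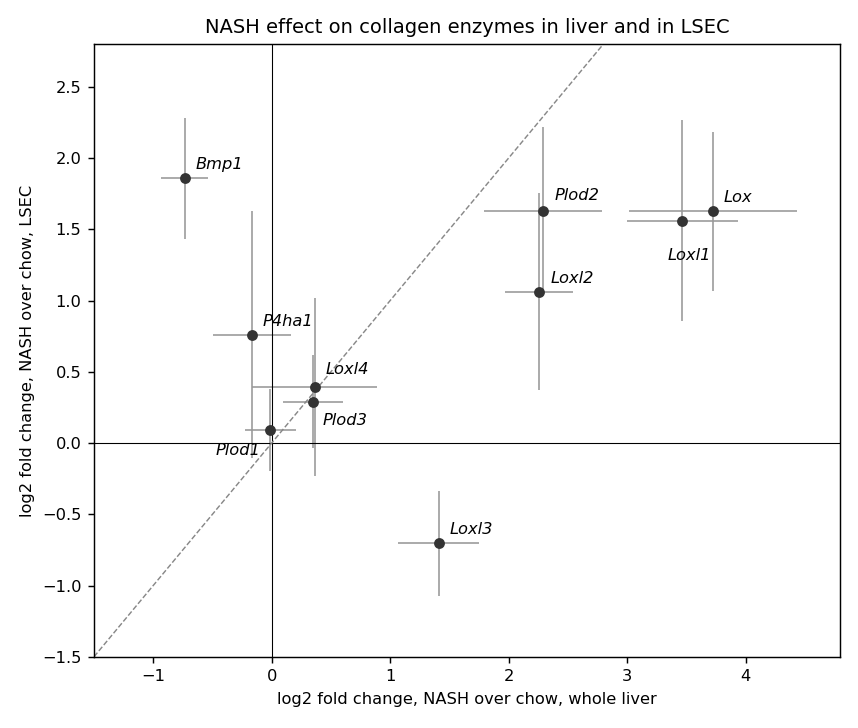
Log2 fold change of NASH over chow in whole liver (horizontal) against LSEC (vertical) for the 10 genes, with 95% intervals from limma; the dashed line marks equal effects. Bmp1 lies in the upper left and Loxl3 in the lower right, while Lox, Loxl1, Loxl2 and Plod2 have positive values in both tables and lie below the line.

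Per kilobase of exon, Bmp1 and Plod1 were the most abundant of the 10 in chow liver, with means of 795 and 720.1 normalized reads and overlapping ranges. Plod3 (267) and P4ha1 (259) followed and also overlapped. Loxl2 (35.3) stood above Loxl3, Loxl1 and Loxl4, whose ranges overlapped at means of 27.1, 26.5 and 26.2. Plod2 (7.85) and Lox (3.39) were lowest. In NASH liver Plod1 (712) was above Bmp1 (477), and Loxl1 had reached the range of Plod3 and P4ha1 (212 to 359, against 317 to 380.2 and 209 to 256).

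In chow LSEC Plod1 led with 1081 normalized reads per kilobase, followed by P4ha1 (429) and Plod3 (342), which overlapped, and by Loxl2 (202) and Loxl3 (202), which overlapped as well. Loxl4 (47.7) came next, then Loxl1 (26.1) and Plod2 (20.4), whose ranges overlapped. Lox (12.8) and Bmp1 (11.9) overlapped at the bottom. In NASH LSEC Loxl2 (402) was far above Loxl3 (123) and overlapped with Plod3 (417). Lox (40.1) and Bmp1 (43.2) were still the lowest and still overlapped.

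Set against the type I collagen gene Col1a1, lysyl oxidase transcripts were fewer in NASH. The 5 lysyl oxidases together had 195, 179 and 150.4 normalized reads per 100 Col1a1 reads in chow liver and 24.1, 23.1 and 23.3 in NASH liver. In LSEC the same ratio was 983, 428 and 579 on chow and 43.7, 72.3 and 51.6 in NASH. Lox, the member with the largest log2 fold change in liver, had 7.41, 6.90 and 2.64 reads per 100 Col1a1 reads on chow and 1.53, 2.44 and 2.07 in NASH, and Loxl1 30.1, 29.5 and 26.1 and 10.5, 7.06 and 9.11. Every NASH library was lower in these ratios than every chow library of its table. Against Col1a2, the other type I chain, the family was again lower in NASH, with 79.0, 72.8 and 67.1 reads per 100 on chow and 26.9, 24.8 and 24.7 in NASH liver, but the groups overlapped for Lox, with 1.18 in the lowest chow and 2.62 in the highest NASH library, and for Loxl1, with 11.7 in each of these. These ratios do not depend on a library's scaling factor, and in which cells the transcripts lay was not tested.

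Among 24 further genes of collagen modification, folding and propeptide removal measured in liver, 10 rose and 5 fell (limma, Benjamini-Hochberg adjusted p under 0.05 over all genes). Of all liver genes, 25.0% were called higher and 21.0% lower. Of 23 in LSEC, 6 rose and 1 fell, where 5.24% of all LSEC genes were called higher and 2.86% lower. The same shares stand beside the list and marker counts that follow, which are a description. Over all 6 related lists 23 genes passed in LSEC, and without chow library 3 or NASH library 1, 2 or 3 this count was 11, 13, 9 and 8. For hydroxylation and folding, 7 of 16 rose and 2 fell in liver, and 4 of 16 rose and 1 fell in LSEC, with median log2 fold changes of 0.26 in each table. Scaling by total reads gave 11 that rose and 1 that fell in liver. Serpinh1 rose in liver by 2.39 ± 0.15 (adjusted p = 4.58e-06), Fkbp10, a collagen chaperone that works with lysyl hydroxylase, by 2.12 ± 0.22 (6.87e-05), and the prolyl 3-hydroxylase family gene P3h3 by 1.58 ± 0.14 (3.61e-05). In LSEC Fkbp10 rose by 2.25 ± 0.23 (limma, adjusted p = 0.00493) and P3h3 by 0.98 ± 0.15 (0.0168), while Colgalt2, a collagen galactosyltransferase gene, fell and was at -1.99 ± 0.30 (0.0163) and fell in liver too (-1.16). With 1 LSEC library left out, 1 to 2 genes of the list rose and 0 to 1 fell. P3h3 lost its LSEC call without chow library 3 or any of the NASH libraries, Colgalt2 without NASH library 2 or 3, and Fkbp10 in none of the 6 fits. The liver call of Colgalt2 was lost without liver NASH library 1 or chow library 1, and with scaling by total reads (-0.76). P4ha2 and P4hb, the partners of P4ha1, passed in neither table. Their log2 fold changes were -0.12 and -0.19 in liver (limma, adjusted p = 0.694 and 0.288) and -0.64 and 0.28 in LSEC (0.369 and 0.257).

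Propeptide removal was divided in liver, where 3 of 8 measured genes rose and 3 fell, the latter being Pcolce2, Mep1b and Furin, which were not called with scaling by total reads. With 1 liver library left out, 3 still rose and 1 to 2 fell. Pcolce2 (limma, adjusted p = 0.0499) and Mep1b (0.0493) were close to the threshold, and Mep1b had only 1.61 to 15.4 normalized reads. Adamts2, which cuts the N-terminal propeptide, rose by 2.53 ± 0.14 on the log2 scale (limma, adjusted p = 2.72e-06). Pcolce, the enhancer of Bmp1's procollagen cleavage, rose by 1.88 ± 0.16 (2.82e-05) while Bmp1 itself was lower. Adamts14 rose by 1.17 ± 0.21 (0.00155). In LSEC 2 of 7 rose and none fell, Adamts2 by 1.91 ± 0.30 (limma, adjusted p = 0.0169) and Tll1, a close relative of Bmp1, by 2.24 ± 0.45 (0.032) from 6.27, 9.79 and 3.07 to 34.8, 28.0 and 31.6 normalized reads. The call of Tll1 was lost in 5 of 6 fits with 1 library left out, all but that without chow library 2, and that of Adamts2 without NASH library 2 or 3, so 0 to 2 genes of the list were called (limma, adjusted p of up to 0.119 and 0.0623). Pcolce did not pass in LSEC (0.09, limma adjusted p = 0.804).

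Partners of crosslinking rose in liver for 9 of 9 genes, and in LSEC for 3 of 9, with none lower in either. In liver the examples by smallest p were Sparc, a collagen-binding glycoprotein (1.96, limma adjusted p = 2.78e-06), Thbs1 (2.53, 3.1e-06) and the transglutaminase Tgm2 (1.54, 5.5e-06). In LSEC they were Thbs1 (3.01, limma adjusted p = 0.00389), Fbln5, which brings Loxl1 to elastin (0.96, 0.0101), and Postn, a scaffold for Bmp1 and Lox (2.36, 0.0168). Thbs1 kept its LSEC call in all 6 fits with 1 library left out. Fbln5 lost its call without NASH library 3, and Postn without NASH library 1 or 2. Of 12 measured substrate genes, 12 rose in liver and 11 in LSEC, with medians of 2.84 and 2.02. The LSEC count was 7, 6 and 4 without NASH library 1, 2 and 3, and 10, 7 and 5 without chow library 1, 2 and 3. Col1a1 rose by 5.18 ± 0.16 in liver (limma, adjusted p = 1.23e-07) and 4.08 ± 0.30 in LSEC (0.00261).

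**Figure D5:**
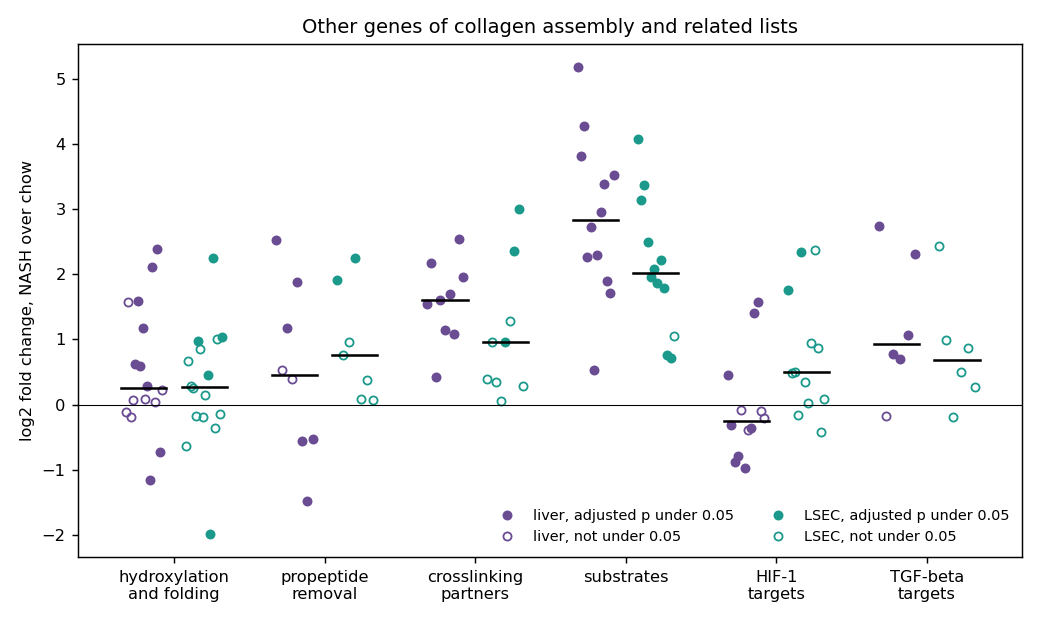
Log2 fold change of NASH over chow for each gene of 6 related lists, liver in purple and LSEC in green; filled points passed limma's adjusted p under 0.05, open points did not, and bars are medians. Substrates have the highest medians, 2.84 in liver and 2.02 in LSEC, and targets of HIF-1 are the list with a median below 0, -0.26 in liver (0.16 with scaling by total reads).

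Targets of 2 regulators known to act on these enzymes were counted as well. Of 12 genes induced by the hypoxia factor HIF-1, which also drives P4ha1, Plod2 and Lox, 3 rose and 5 fell in liver, with Pdk1 at -0.78 (limma, adjusted p = 5.6e-05), Bnip3 at -0.98 (0.000378) and Ldha at -0.89 (0.0021). Over all liver genes 25.0% were called higher and 21.0% lower. Without NASH library 3 or chow library 1 or 2 of the liver, 1 of the HIF-1 targets rose and 4 fell. With scaling by total reads 3 rose and 3 fell, and the list's median of -0.26 became 0.16. In LSEC 2 rose, Slc2a1 by 1.76 (limma, adjusted p = 0.0138) and Egln3 by 2.34 (0.0359), and none fell. Without adjustment, 5 were higher and 1 was lower at a limma p under 0.05. With scaling by total reads or with edgeR 3 rose, and with DESeq2 4 rose. The Egln3 call was lost in 5 of 6 fits with 1 LSEC library left out, all but that without chow library 2, and the Slc2a1 call without NASH library 2 or chow library 3. Of 6 targets of TGF-beta, a strong inducer of matrix genes, 5 rose in liver, among them Pmepa1 (2.32, limma adjusted p = 1.88e-05) and Tgfbi (1.07, 4.49e-05). In LSEC, where the median was 0.68, 0 of the 6 passed with edgeR, or with limma under the authors' scaling and all libraries, and 2 passed with DESeq2. With limma 1 passed with scaling by total reads, and 1 when LSEC chow library 1 or 2 was left out. At limma's unadjusted p under 0.05, 4 were higher.

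Markers of other cell types moved with the diets too, and no listed marker was at 0 in all libraries of a table. In liver 4 of 8 stellate cell markers rose (7 with scaling by total reads) and none fell, with sums of 10429 to 12769 normalized reads on chow and 13417 to 19735 in NASH. Of 6 markers of myofibroblasts and smooth muscle 4 rose (sums of 1041 to 1628 and 4319.9 to 6225), and 4 of 4 cholangiocyte markers (519 to 575 and 1053 to 2643) and 6 of 6 of recruited macrophages (1732 to 2045 and 13318 to 21361) did. In LSEC 2 of 8 stellate markers rose, with sums of 11848, 3836 and 14264 on chow and 24061, 15955 and 13318 in NASH. The second chow library was the lowest of its group for this sum and for Loxl1, Loxl2, Loxl3, Loxl4 and Bmp1. It was the highest for Lox, Plod2, Plod3 and P4ha1, and for the myofibroblast and smooth muscle sum (1293, 7672 and 3064 on chow). In LSEC 1 of 6 myofibroblast and smooth muscle markers (1293 to 7672 and 3043 to 4978), 3 of 6 recruited macrophage markers (2578 to 2799 and 5337 to 7529), and 2 of 6 Kupffer cell markers (6813 to 19288 and 29164 to 39096) passed limma. Of 6 hepatocyte, 4 cholangiocyte and 3 mesothelial markers 0 passed limma or edgeR, though all 4 cholangiocyte markers and 1 mesothelial marker did with DESeq2, and 0, 4 and 1 had an unadjusted p under 0.05 in limma. Of the sinusoidal markers 3 of 7 fell in LSEC and 1 rose, or 1 and 1 with scaling by total reads. With single LSEC libraries left out these counts were 0 to 2 for stellate, 0 to 1 for myofibroblast and smooth muscle, 1 to 5 for recruited macrophage and 0 to 3 for Kupffer cell markers, 0 to 3 sinusoidal markers fell, and 4 hepatocyte markers passed without chow library 2. The part of these cells in the values of the 10 genes was not tested.

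The genes closest in pattern to Lox and Bmp1 were found among 10961 genes by the Euclidean distance of log2 values, centred on the chow mean of each table, over the 12 libraries. For Lox they were Plat, which encodes tissue plasminogen activator (distance 0.98, log2 fold changes 3.59 in liver and 1.48 in LSEC), the type VI collagen gene Col6a3 (1.33, 3.38 and 1.79) and Haus8 (1.43, 3.30 and 1.43). For Bmp1 those given here are Hunk (distance 0.93, log2 fold changes -0.63 and 1.57) and Serping1, which encodes the C1 inhibitor (1.02, -0.27 and 1.71). Their likeness to Bmp1 is the measure they were picked by, and with scaling by total reads Serping1 was at 0.14 in liver.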

How the data were processed

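The tools named in the submitters' processing notes are STAR, HTSeq, DESeq2, FastQC and Seurat, and the build is mm10. Their versions, settings and the annotation are not stated there. The signal values are the authors' read counts per gene divided by 1 factor per library. Dividing by each library's smallest value above 0 gave whole reads, within 0.01, for 100% of values. The authors' deposited log2 fold changes and p-values were not used. Each table was fitted alone with limma 3.58.1 (R 4.3.3, variance trend, log2 of value + 1, no filter). The difference between tables used a t distribution with Satterthwaite degrees of freedom and left out 22 date-like names per table. Alternatives were pseudocounts of 0.1 and 10, a mean of at least 10, other scalings, edgeR 4.0.16 and DESeq2 1.42.0 on recovered reads, a replicate block, and each library left out. Reads per kilobase used exon lengths of GENCODE's mm10 annotation, which may differ from the authors'. The members and lists were chosen with earlier results of these data known. Named were all members, up to 3 called genes per list with the smallest p, and Col1a1, P4ha2 and P4hb, and some genes that this rule names are not reported here. LSEC libraries are numbered by position. The steps were tested on simulated data. That simulation used known library factors and changed only genes with ample reads, so it did not test the scaling or genes with few reads.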

Additional observations from a re-analysis of the deposited data

Results flagged for a closer look

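The difference of log2 fold changes, liver minus LSEC, was called for 19.5% of genes in both tables. For 5 of the 10 enzymes its values are a description, since the set was chosen with both contrasts known, and were 2.10 for Lox, 1.90 for Loxl1, 1.20 for Loxl2, 2.11 for Loxl3 and -2.59 for Bmp1. Among the other named genes the difference was positive for the matrix and folding genes Pcolce (1.79; limma effects, adjusted p = 0.000153), Sparc (1.68, 4.67e-05), Col6a3 (1.59, 0.0039), Serpinh1 (1.39, 0.0279), Tgm2 (1.16, 0.00114) and Col1a1 (1.10, 0.0418), and for the TGF-beta target Pmepa1 (2.05, 2.92e-05). It was negative for 5 targets of HIF-1, namely Egln3 (-2.42; limma effects, adjusted p = 0.0137), Ldha (-1.39, 0.00252), Bnip3 (-1.32, 0.00949), Slc2a1 (-1.30, 0.0095) and Pdk1 (-0.63, 0.0123). The difference was positive but not called for Col3a1 (0.90), Colgalt2 (0.83), Col1a2 (0.67), Adamts2 (0.62), P3h3 (0.60), Adamts14 (0.21), Fbln5 (0.19) and the TGF-beta target Tgfbi (0.21). For Tll1 (-1.86), Postn (-1.28), Thbs1 (-0.47) and Fkbp10 (-0.13) it was negative and not called. These other genes were named for a small p in the liver or the LSEC contrast, the same contrasts that are subtracted here. Their p-values do not allow for that choice, and the signs describe these genes and not their lists. The HIF-1 targets Ankrd37 and Car9, which rose in liver, were not among the named genes. Groups of 3 libraries are too small to test single libraries as outliers.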

How the results depend on the processing

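Of the 10 enzymes, 7 were called in liver under each setting tried except scaling by total reads (9) and leaving out 1 library (6 to 7). In LSEC 4 to 6 were called across settings with all libraries, and 1 to 5 with 1 left out. The difference between tables was called for 5, and for 4 to 5 with 1 left out. Genes called in LSEC numbered 1319, but 2503 with DESeq2 on recovered reads, and 124 to 1171 with 1 library left out, namely 124 without NASH library 3, 241 without NASH library 2, 255 without chow library 3 and 474 without NASH library 1. Genes of the related lists called in LSEC numbered 23, and 8 to 19 with 1 left out. Genes with a different effect in the 2 tables numbered 3073, and 1840 to 3171 with 1 left out, lowest without LSEC chow library 3 (1840) or LSEC NASH library 3 (1865). Fewer libraries lower the power of these fits. Scaling by total reads called 7878 liver genes higher and 904 lower, against 4179 and 3512, and 1164 and 273 in LSEC, against 853 and 466. For the difference it gave 3237 and 669, against 1813 and 1260. It turned the liver sign of Plod1 (0.40), P4ha1 (0.25), P4ha2 (0.30), P4hb (0.23) and Egln3 (0.34). With 1 library left out, signs also turned for Plod1 (-0.094 to 0.046), P4ha1 (-0.26 to 0.000531), P4ha2 (-0.28 to 0.11), Egln3 (-0.16 to 0.036) and Tll1 (-0.38 to 1.29) in liver and for Pcolce (-0.10 to 0.22) in LSEC, and Tll1 turned with a pseudocount of 0.1 (-0.22). With the authors' scaling, a pseudocount of 1 and all libraries these were not called in that table, while Plod1 was called in liver with scaling by total reads. The cause was not tested. With a replicate block in liver 7447 genes were called, against 7691, and the same number of enzymes, 7. Deviations of same-numbered liver libraries correlated at -0.03, -0.03 and 0.18, and those of differently numbered ones at -0.16 to 0.17. With 3 libraries per group, centred on the group mean, these values cannot decide whether the numbers pair the libraries. No paired analysis was possible in LSEC because its columns carry no replicate number.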
